A study of Mus musculus with 6 samples.

Results

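A set of 10 genes that mark neuroblasts, the migrating young neurons of neurogenic regions, and early neurons was followed in RNA sequencing of mouse neurospheres. The 10 genes, out of 14327 in the expression table, were taken by symbol: Dcx, Tubb3, Tubb2b, Cd24a, Stmn1, Elavl4, Map2, Sox4, Sox11 and Dpysl3. Neurospheres are balls of neural stem cells and their progeny grown in suspension, here from primary cells taken from the hippocampus at postnatal day 0 and grown with B27, N2, EGF and bFGF. There were 3 libraries labelled WT (wild-type) and 3 labelled cKO (conditional knockout of Slc22a17, a receptor for the iron-binding protein lipocalin 2), all grown in the same medium. The driver of the conditional deletion, the age of the cultures and whether libraries of a group came from separate animals are not stated in the labels. The p-values thus reflect only how much these libraries varied, and that variation may be technical.

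New neurons of the hippocampus arise from radial glia-like stem cells through dividing intermediate progenitors and neuroblasts. As a progenitor leaves the cell cycle, the transcription factors Sox4 and Sox11 help switch on neuronal genes, and the cytoskeleton is rebuilt by neuronal tubulins and microtubule-binding proteins such as doublecortin, encoded by Dcx. Several of these markers are not restricted to neurons: Stmn1, Sox4, Sox11 and Tubb2b are also transcribed in dividing neural progenitors, and Cd24a in several epithelial and blood cells. EGF and bFGF in the medium keep cells dividing and hold back differentiation.

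The neuronal tubulin Tubb2b has close relatives, so part of its sequence is shown first, because it bears on what a value for one tubulin gene can mean. The first 90 coding bases of 4 beta-tubulin genes (GENCODE M21, GRCm38) follow, with capitals at bases that differ from Tubb2b.
Tubb2b: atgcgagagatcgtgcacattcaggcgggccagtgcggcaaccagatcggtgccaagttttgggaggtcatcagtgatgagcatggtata
Tubb2a: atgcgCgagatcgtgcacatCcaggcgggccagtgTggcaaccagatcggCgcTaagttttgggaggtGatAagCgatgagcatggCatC
Tubb3: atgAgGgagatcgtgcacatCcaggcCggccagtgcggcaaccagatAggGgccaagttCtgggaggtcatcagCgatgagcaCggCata
Tubb5: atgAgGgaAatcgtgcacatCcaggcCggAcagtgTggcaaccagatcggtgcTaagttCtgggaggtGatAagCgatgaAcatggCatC
Within this stretch Tubb2a differed from Tubb2b at 10 bases, Tubb3 at 10 and Tubb5 at 15. Over the first 1200 coding bases Tubb2a was 96.3% identical to Tubb2b, against 84.4% for Tubb3 and 84.1% for Tubb5. Of the 50-base words in the longest Tubb2b transcript 39.3% also occurred in transcripts of other genes, mostly Tubb2a, and 27.7% of its 100-base words did. For Stmn1 the shares were 36.5% and 26.1%, nearly all with the annotated gene Gm11223. For Cd24a they were 3.90% and 0.116%, and for Dcx 0.255% and 0. Tubb3, Elavl4, Map2, Sox4, Sox11 and Dpysl3 shared no word of either length. The treatment of reads that match several genes is not stated in the labels, so the levels of Tubb2b and Stmn1 are less certain than those of the other members. In the annotation Tubb3 overlaps the gene Gm20388 on the same strand, and Map2 overlaps the antisense gene Gm10558.

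The 10 genes covered a wide span of levels. FPKM, a fragment count scaled to library size and transcript length, allows comparison between genes, so levels of different genes can be set side by side. By mean FPKM over the 6 libraries the order was Tubb2b (428), Stmn1 (188), Map2 (75.985), Sox4 (54.7), Cd24a (28.1), Dpysl3 (22.2), Sox11 (6.99), Tubb3 (4.58), Elavl4 (1.88) and Dcx (0.203). Only the neighbours Cd24a and Dpysl3 had ranges over the 6 libraries that overlapped. Tubb2b ranked 113th of the 14327 genes by mean and Dcx ranked 13164th. The label of this gene set was thus met unevenly: Tubb3, Elavl4 and Dcx, members largely restricted to neurons, were the lowest, whereas Map2, the dendritic microtubule protein, followed Stmn1 in the order. Sox11 lay below the median of all tested genes, 12.3 FPKM.

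**Figure D1:**
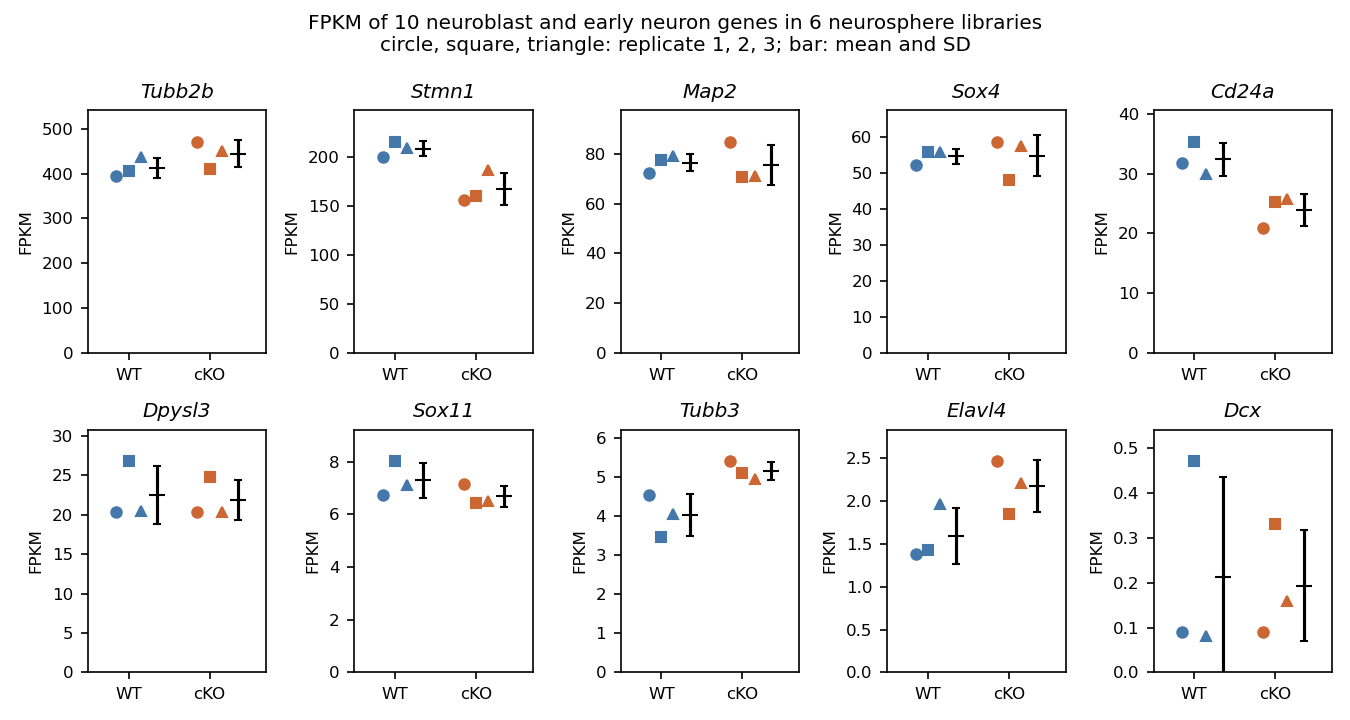
FPKM of each of the 10 genes in the 3 WT and 3 cKO libraries, one panel per gene with its own axis from 0, in order of mean level; symbols are replicates, the bar is mean and SD, and the lower end of the WT bar of Dcx is cut at 0. Stmn1 and Cd24a lie lower in every cKO library than in any WT library, Tubb3 lies higher, and the other panels overlap.

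Before the group comparison, 3 facts of the libraries matter. Slc22a17 transcripts were present in all libraries, at 185 ± 17.8 FPKM in WT and 172 ± 12.7 FPKM in cKO (SD, n = 3 each, log2 fold change -0.097, adjusted p = 0.707 by limma). The directions below are therefore between libraries labelled WT and libraries labelled cKO, not between cells shown to have or lack the transcript. The Y-linked genes Ddx3y and Eif2s3y summed to 0.10 and 0.07 FPKM in WT replicates 1 and 2, to 25.9 in WT replicate 3 and to 43.8 to 51.2 in the cKO libraries, so Y-linked content and group cannot be told apart fully in this design. In bulk RNA, fewer cells of a type and less RNA per cell cannot be told apart either.

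Groups were compared by limma on log2(FPKM + 1) over the 11596 genes whose mean reached 1 FPKM, a scale that understates the change of low genes. Dcx, at a mean of 0.203 FPKM, was below that minimum and the other 9 members were tested. None of the 9 passed an adjusted p of 0.05. Over all tested genes 0.0259% passed, 1 gene higher in cKO (0.00862%) and 2 lower (0.0172%). At an unadjusted p under 0.05 there were 4 of the 9, Tubb3 and Elavl4 higher and Stmn1 and Cd24a lower, where 12.3% of all tested genes reached it, 4.44% as higher and 7.82% as lower. That split, 515 higher and 907 lower, was 654 and 760 with median-ratio scaling and 736 and 737 with quantile normalization. The 2 groups did not overlap for 3 of the 9 members, Tubb3, Stmn1 and Cd24a, where this held for 17.2% of all tested genes, 7.07% with cKO above and 10.2% with cKO below. Of the 9 members 3 had higher and 6 lower estimates in cKO, the median log2 fold change being -0.019 beside -0.015 for all tested genes. With 9 genes these counts are a description of the members and say nothing particular to them.

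**Figure D2:**
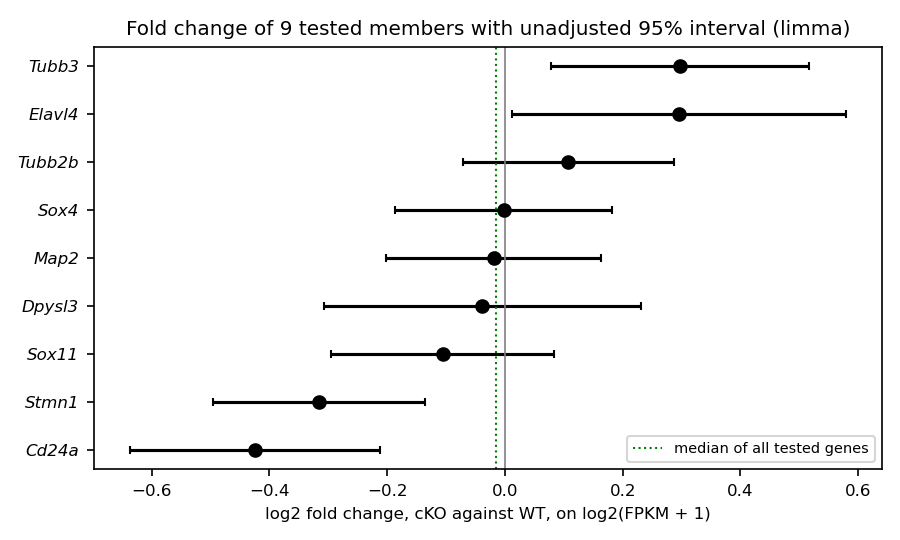
Log2 fold change of cKO against WT on log2(FPKM + 1) for the 9 tested members, with unadjusted 95% intervals from limma; the dotted line is the median of all tested genes. The intervals of Tubb3, Elavl4, Stmn1 and Cd24a exclude 0 before adjustment for multiple tests, and those of the other 5 include it.

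Among the members that act on cytoskeletal assembly, Stmn1 (identifier 16765, chromosome 4, 134468320 to 134473843 in GRCm38) had lower values in cKO. It encodes stathmin, which binds free tubulin dimers and destabilises microtubules, and it is high in dividing cells. Its FPKM was 199.6, 215 and 209 in WT replicates 1 to 3 and 156, 159.75 and 186 in cKO replicates 1 to 3. Each cKO library was below each WT library, with cKO replicate 3 the closest to WT. The means were 208 ± 7.72 in WT and 167 ± 16.3 in cKO (SD, n = 3 each), 80.4% of the WT level. The log2 fold change was -0.32 (SE 0.079, 95% interval -0.50 to -0.14), which did not pass in limma (adjusted p = 0.235). An exact two-sided permutation test of the 6 FPKM values gave p = 0.1, the smallest that 3 against 3 libraries can give.

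Cd24a (identifier 12484, chromosome 10, 43579169 to 43584265) had the largest estimated decrease of the 9 tested members. It encodes a small glycosylated protein anchored at the cell surface, used to sort neuroblasts from brain tissue. Its FPKM was 31.8, 35.3 and 30.0 in WT replicates 1 to 3 and 20.8, 25.2 and 25.7 in cKO replicates 1 to 3. No cKO library reached the lowest WT library, and cKO replicate 1 was the lowest of all. The means were 32.4 ± 2.69 and 23.9 ± 2.68 FPKM (SD, n = 3 each), 73.8% of the WT level. The log2 fold change was -0.42 (SE 0.093, 95% interval -0.64 to -0.21), with an adjusted p of 0.194 in limma and p = 0.1 in the exact permutation test. With library weights, which let limma count less consistent libraries less, Cd24a passed at a log2 fold change of -0.38 (adjusted p = 0.0483), a setting in which 129 genes passed. After adding a covariate for the Y-linked share it was -0.16 (adjusted p = 0.956 by limma). That share departs from group mainly in WT replicate 3, at 53.4% of the cKO mean beside 0.206% and 0.144% in WT replicates 1 and 2. The covariate fit thus cannot settle the part of Y-linked content. Against WT replicate 3 alone, the WT library with Y-linked transcripts, the Cd24a estimate was -0.32. Over all other alternatives the adjusted p ran from 0.0849 to 0.472.

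Tubb3 (identifier 22152, chromosome 8, 123411553 to 123422015), the neuron-specific class III beta-tubulin recognised by the antibody Tuj1, had higher values in cKO. Its FPKM was 4.53, 3.46 and 4.06 in WT replicates 1 to 3 and 5.40, 5.09 and 4.95 in cKO replicates 1 to 3. All cKO libraries lay above WT replicate 1, the highest of WT. The means were 4.02 ± 0.54 and 5.15 ± 0.23 FPKM (SD, n = 3 each), 1.28 times the WT level, with a log2 fold change of 0.30 (SE 0.096, 95% interval 0.079 to 0.52). It did not pass in limma (adjusted p = 0.279), and the exact permutation test gave p = 0.1. The estimate was 0.18 with library weights, its lowest over all alternatives run.

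Elavl4 (identifier 15572, chromosome 4, 110203737 to 110351939) encodes HuD, a neuronal protein that binds and stabilises messenger RNAs of differentiating neurons. Its FPKM was 1.38, 1.43 and 1.96 in WT replicates 1 to 3 and 2.46, 1.85 and 2.21 in cKO replicates 1 to 3. The groups overlapped, because WT replicate 3 lay above cKO replicate 2. The means were 1.59 ± 0.32 and 2.17 ± 0.31 FPKM (SD, n = 3 each), 1.37 times the WT level, which limma put at 0.30 on the log2 scale (SE 0.12, adjusted p = 0.391). An exact permutation test of the FPKM values gave p = 0.2. Against WT replicate 3 alone the estimate was 0.096. Once the Y-linked share was a covariate its sign turned, to -0.22 (adjusted p = 0.951 by limma). The covariate estimate also leans mainly on WT replicate 3, so it cannot settle the part of Y-linked content. Of the related RNA-binding genes, Elavl3 averaged 6.38 in WT and 5.52 in cKO (adjusted p = 0.711), Elavl2 0.833 and 0.947, below the minimum for a test, and the ubiquitous Elavl1 12.8 and 12.1 FPKM (adjusted p = 0.682).

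Dcx (identifier 13193, chromosome X, 143855842 to 143933396), which encodes the microtubule-binding protein most used to mark neuroblasts, was low in every library. Its FPKM was 0.09, 0.47 and 0.08 in WT replicates 1 to 3 and 0.09, 0.33 and 0.16 in cKO replicates 1 to 3, where the table's values are rounded to 0.01. The highest library of each group was replicate 2, and the spread inside each group was larger than the difference between the means, 0.213 ± 0.22 and 0.193 ± 0.12 FPKM (SD, n = 3 each). The exact permutation test gave p = 1. No group difference in Dcx was detectable at this level, which does not show that there is none. Its close relatives were far more abundant: Dclk1, a doublecortin-like kinase also made by radial glia, averaged 43.7 in WT and 33.0 FPKM in cKO, and Dclk2 37.2 and 36.5 FPKM. Dclk1 gave 46.0, 48.9 and 36.0 FPKM in the WT libraries, against 34.2, 32.3 and 32.6 in the cKO ones, without overlap, with a log2 fold change of -0.38 (adjusted p = 0.238).

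Map2, Tubb2b and Dpysl3, which also act on the cytoskeleton, overlapped between the groups. Map2 (identifier 17756, chromosome 1, 66175202 to 66442583), a microtubule-associated protein of dendrites, gave 72.45, 77.6 and 79.1 FPKM in the 3 WT libraries (replicates 1 to 3), against 84.75, 70.8 and 71.2 in the cKO ones. The highest and the lowest library were both cKO. Its log2 fold change was -0.019 (95% interval -0.20 to 0.16, adjusted p = 0.953). Tubb2b (identifier 73710, chromosome 13, 34127008 to 34130354), a beta-tubulin of migrating neurons and radial glia, gave 394, 405 and 437 FPKM in the WT libraries, against 471, 411 and 451 in the cKO ones. WT replicate 3 lay above cKO replicate 2, and the log2 fold change was 0.11 (95% interval -0.072 to 0.29, adjusted p = 0.628). Dpysl3 (identifier 22240, chromosome 18, 43320979 to 43438286), also called CRMP4, links growth cone signals to actin and microtubules. It gave 20.3, 26.8 and 20.5 FPKM in the 3 WT libraries (replicates 1 to 3), against 20.4, 24.7 and 20.3 in the cKO ones. As for Dcx, replicate 2 was the highest of each group, and the log2 fold change was -0.038 (95% interval -0.31 to 0.23, adjusted p = 0.932). The sign of Map2 and Dpysl3 turned when certain single libraries were left out, and that of Tubb2b turned with the Y-linked covariate. The exact permutation tests gave p = 0.8 for Map2, p = 0.2 for Tubb2b and p = 0.7 for Dpysl3.

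The 2 transcription factors of the set, Sox4 and Sox11, are closely related activators of neuronal genes and each lies in a single exon. Sox4 (identifier 20677, chromosome 13, 28948919 to 28953699) gave 52.2, 55.9 and 55.8 FPKM in the 3 WT libraries (replicates 1 to 3), against 58.6, 48.2 and 57.4 in the cKO ones. The means were 54.6 ± 2.10 and 54.7 ± 5.71 FPKM, and the log2 fold change was -0.0019 (95% interval -0.19 to 0.18, adjusted p = 0.996), a sign that median-ratio scaling turned (0.016). Sox11 (identifier 20666, chromosome 12, 27334268 to 27342718) was lower than Sox4, whose mean FPKM was 7.83 times as high, at 6.73, 8.01 and 7.11 in WT and 7.15, 6.43 and 6.49 in cKO. Its groups overlapped, with a log2 fold change of -0.11 (95% interval -0.29 to 0.083, adjusted p = 0.657). The third gene of this group, Sox12, averaged 10.3 in WT and 8.96 FPKM in cKO (adjusted p = 0.540). The exact permutation tests gave p = 1 for Sox4 and p = 0.3 for Sox11.

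The tubulin genes as a family showed estimates in both directions. Of 17 listed 16 were in the table and 14 were tested, 6 with higher and 8 with lower estimates in cKO, and none passed an adjusted p of 0.05, with 3 higher and 5 lower at an unadjusted p under 0.05. At that p 4.44% of all tested genes were higher and 7.82% lower. No tubulin sign turned under either scaling. The groups did not overlap for 9 of the 14, or 64.3%, beside 17.2% of all tested genes. Above WT in every cKO library were Tubb3, Tuba4a, Tubb4b and Tuba1a. Tuba1a, the main alpha-tubulin of developing neurons and the most abundant of the family, averaged 1212 in WT and 1331 FPKM in cKO (adjusted p = 0.556). Below WT in every cKO library were Tuba1b, Tuba1c, Tubb5, Tubb6 and Tubd1. Tuba1c, a widely expressed alpha-tubulin, had means of 19.1 and 13.5 FPKM (log2 fold change -0.48, adjusted p = 0.186), and Tubb6 had means of 57.5 and 41.8 FPKM (log2 fold change -0.47, adjusted p = 0.235). Tubb5, a beta-tubulin abundant in dividing cells, gave 261, 301 and 282 FPKM in the WT libraries, against 219, 239 and 256 in the cKO ones (log2 fold change -0.24, adjusted p = 0.297). Tubb2a, the near copy of Tubb2b, averaged 185 and 224 FPKM and overlapped between groups (adjusted p = 0.408). The summed FPKM of the 16 tubulin genes was 2800 to 3003 in WT and 2927 to 3042 in cKO, so the sums overlapped.

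**Figure D3:**
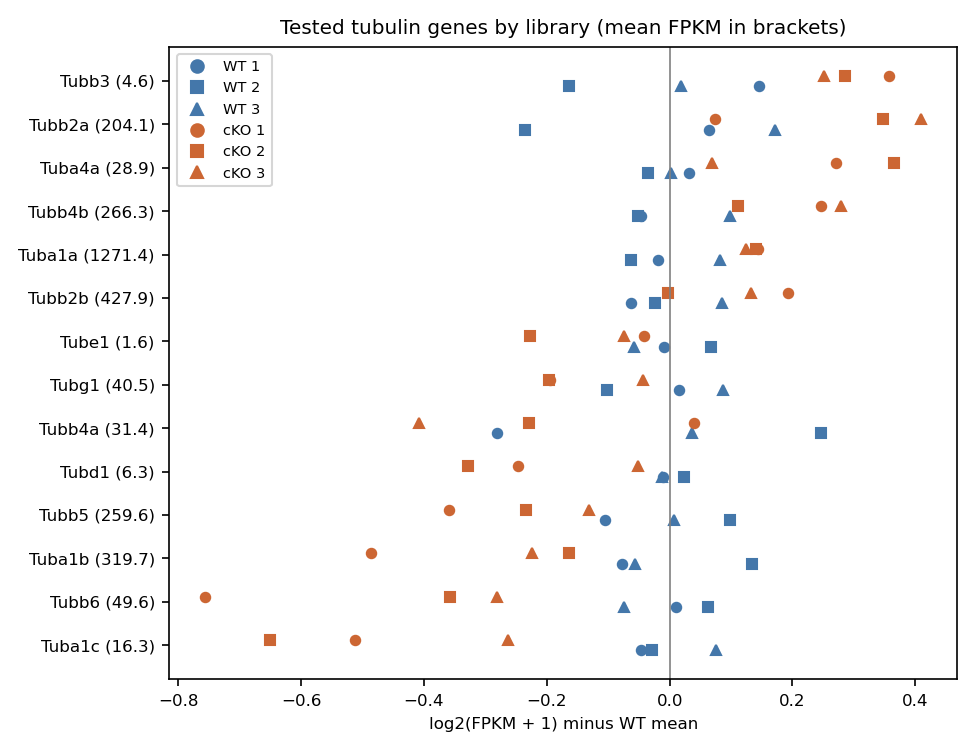
Log2(FPKM + 1) of the 14 tested tubulin genes in each library, minus the WT mean of the gene, ordered by estimated fold change. Tubb3, Tuba4a, Tubb4b and Tuba1a lie above WT in all cKO libraries and Tubd1, Tubb5, Tuba1b, Tubb6 and Tuba1c below; none passed an adjusted p of 0.05.

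Tubb3 is the member tubulin whose groups lay apart, and Tubb4b and Tubb5 are widely expressed and abundant beta-tubulins whose groups lay apart, above WT for Tubb4b (means 247 in WT and 286 FPKM in cKO, log2 fold change 0.21, adjusted p = 0.306) and below for Tubb5, so the 250 bases before their RefSeq start (GRCm38.p6) are shown. Tubb6, also below WT, is not shown. Capitals mark matches on either strand to 4 short promoter words that do not contain one another: CCAAT, the box bound by NF-Y, then GGGCGG, the GC box, then TATAAA, the TATA box, and last TTTGAA, the cell cycle homology element. Tubb3 lies on the plus strand at chr8:123411303-123411552, Tubb4b on the minus strand at chr2:25224703-25224952 and Tubb5 on the minus strand at chr17:35838302-35838551.
Tubb3: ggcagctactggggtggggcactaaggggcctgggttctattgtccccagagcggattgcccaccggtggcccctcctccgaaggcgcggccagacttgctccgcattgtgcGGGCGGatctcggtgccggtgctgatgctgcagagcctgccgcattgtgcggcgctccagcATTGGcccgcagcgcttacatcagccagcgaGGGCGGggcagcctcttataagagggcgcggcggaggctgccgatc
Tubb4b: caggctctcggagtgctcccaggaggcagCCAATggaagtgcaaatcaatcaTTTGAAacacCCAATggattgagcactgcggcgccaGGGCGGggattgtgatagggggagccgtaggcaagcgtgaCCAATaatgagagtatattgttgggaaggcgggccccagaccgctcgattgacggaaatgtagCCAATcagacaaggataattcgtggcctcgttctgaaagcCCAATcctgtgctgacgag
Tubb5: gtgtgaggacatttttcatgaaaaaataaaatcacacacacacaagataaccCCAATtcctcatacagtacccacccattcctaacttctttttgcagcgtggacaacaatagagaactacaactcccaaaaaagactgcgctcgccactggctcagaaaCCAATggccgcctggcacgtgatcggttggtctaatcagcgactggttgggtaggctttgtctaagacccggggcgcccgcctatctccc
The Tubb3 window held 1 CCAAT and 2 GGGCGG words and was 68.0% G or C. The Tubb4b window held 5 CCAAT words, 1 GGGCGG and 1 TTTGAA and was 54.4% G or C. The Tubb5 window held 2 CCAAT words, no GGGCGG and was 49.2% G or C. Of all 32851 windows of this length in the table, 33.8% held CCAAT, 32.7% GGGCGG, 16.0% TTTGAA and 12.4% TATAAA. A promoter was found in that table for 6 of the 10 members, Dcx, Tubb3, Elavl4, Map2, Sox4 and Sox11. The windows of Tubb3, Tubb4b and Tubb5 were chosen by the expression values, and those of Tubb2a, Tuba1b and Tuba1c are not shown. The matches are a description of these letters, and their relation to expression was not tested.

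Relatives of the members other than tubulins were read from a list of 19 genes, of which 18 were in the table and 16 were tested. The list also holds the Elavl relatives and Sox12 given above, and Elavl1, Elavl3 and Sox12 were among its lower estimates. None passed over all genes, and 8 estimates were higher and 8 lower under each scaling. Of these, 2 and 1 were at an unadjusted p under 0.05, beside 4.44% and 7.82% of all tested genes. The median log2 fold change of the list was -0.0080. Stmn3, a neuronal stathmin of Golgi membranes, averaged 13.3 in WT and 16.6 FPKM in cKO. Its log2 fold change was 0.30 (adjusted p = 0.297 by limma), opposite in sign to Stmn1. Stmn4 had the sign of Stmn1, averaging 2.55 in WT and 1.92 FPKM in cKO (log2 fold change -0.29, adjusted p = 0.630 by limma). The groups overlapped for both Stmn3 and Stmn4. Stmn2, the stathmin of growth cones and a marker of young neurons, averaged 0.213 and 0.310 FPKM, in the range of Dcx and below the minimum for a test. Among relatives of Dpysl3, Crmp1 averaged 8.52 and 10.5 FPKM (adjusted p = 0.393), Dpysl2 10.3 and 11.3 FPKM (adjusted p = 0.543), Dpysl4 7.56 and 9.58 FPKM (adjusted p = 0.482) and Dpysl5 1.08 and 1.27 FPKM (adjusted p = 0.759). All 4 had higher means and overlapping groups. Of the relatives of Map2, the tau gene Mapt averaged 17.9 and 18.2 FPKM (adjusted p = 0.994) and Map1b, an early axonal protein, 3.47 and 2.49 FPKM (adjusted p = 0.759).

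Other genes of the neuronal lineage were read from 3 lists, and no gene of them passed in limma over all tested genes, with 3 higher and 4 lower at an unadjusted p under 0.05. In the list of further neuroblast genes 22 of 33 were tested, 13 with higher and 9 with lower estimates and a median of 0.019. Gpm6a, a membrane glycoprotein of neurite growth that glia also make, gave 185, 191 and 199 FPKM in the WT libraries, against 239, 207 and 239 in the cKO ones (log2 fold change 0.25, adjusted p = 0.257). Ncan, a matrix proteoglycan, averaged 193 in WT and 158 FPKM in cKO (log2 fold change -0.29, adjusted p = 0.289). Among transcription factors and regulators that drive neurogenesis 9 of 30 were tested, 21 being in the table, with 3 estimates higher and 6 lower. Btg2, an antiproliferative gene switched on in neurogenic divisions, had means of 11.9 and 9.39 FPKM (log2 fold change -0.31, adjusted p = 0.257), and Bcl11a, a zinc finger factor, 2.42 and 1.77 FPKM (log2 fold change -0.30, adjusted p = 0.283). Both were lower in each cKO library than in any WT library, as were 10.2% of all tested genes. Eomes, the mark of intermediate progenitors, averaged 0.160 FPKM in WT and 0.117 FPKM in cKO. Tbr1, a factor of young glutamatergic neurons, averaged 0.0567 and 0.10 FPKM, and both overlapped between the groups. Among other untested genes of the neuroblast and neurogenesis lists, Dlx1, Calb2 and Sp9 lay below WT in every cKO library. No untested gene of these lists lay above WT in every cKO library. Dlx1 averaged 1.02 in WT and 0.403 FPKM in cKO, Calb2 0.427 and 0.12 FPKM, and Sp9 0.377 and 0.19 FPKM. These low genes were named after their values were seen.

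Genes of mature neurons gave 7 higher and 7 lower estimates among 14 tested of 25 listed, with a median of -0.012. Camk2b, a calcium-dependent kinase subunit, gave 42.6, 38.5 and 35.5 FPKM in the WT libraries, against 30.8, 24.9 and 29.9 in the cKO ones, without overlap (log2 fold change -0.43, adjusted p = 0.194). Gria2, an AMPA receptor subunit, had means of 32.3 and 40.7 FPKM (log2 fold change 0.32, adjusted p = 0.395). Rbfox3, which encodes the neuronal nuclear antigen NeuN, averaged 0.193 in WT and 0.273 FPKM in cKO, and Syt1, a sensor of synaptic release, 0.110 and 0.147 FPKM. Of the other list genes below the minimum for a test, Gad1 and Gad2 had lower means in cKO. Gad1 averaged 0.98 in WT and 0.583 FPKM in cKO, and Gad2 0.223 and 0.123 FPKM. Snap25, Grin1 and Slc17a6 had higher means in cKO. All these untested genes overlapped between the groups, and they were named after their values were seen. Of genes that hold back the neuronal programme 11 of 11 were tested and 9 had lower estimates, with a median of -0.18, and none passed (3 lower at an unadjusted p under 0.05). Of all 11596 tested genes 6431 had lower estimates, and 7.82% were lower at that p. Rcor2, a corepressor that partners the neuronal silencer REST, averaged 11.5 in WT and 8.54 FPKM in cKO (log2 fold change -0.38, adjusted p = 0.242), and Ptbp1, a splicing repressor of neuronal exons, 61.8 and 51.1 FPKM (log2 fold change -0.27, adjusted p = 0.337). The mean log2 difference of these 11 genes from WT was -0.16, 0.34 and -0.18 in WT replicates 1 to 3. In cKO replicates 1 to 3 it was -0.29, -0.032 and -0.071. The groups overlapped, as WT replicates 1 and 3 lay below cKO replicates 2 and 3.

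Markers of division were, like Stmn1, lowest in cKO replicates 1 and 2. All 20 genes of a proliferation list had lower estimates in cKO (19 after either scaling, where the nucleotide enzyme gene Tyms turned), the median log2 fold change being -0.40 and 16 at an unadjusted p under 0.05, where 7.82% of all tested genes were lower at that p, and none passed over all genes. Their mean log2 difference from WT was -0.42, -0.57 and -0.13 in cKO replicates 1 to 3 and -0.11, 0.12 and -0.0079 in WT replicates 1 to 3. Stmn1 on the same scale was -0.41, -0.38 and -0.16 in the cKO libraries, beside -0.058, 0.048 and 0.0094 in WT. In both, cKO replicate 3 was the cKO library nearest to WT. Cd24a stood at -0.61, -0.35 and -0.32 in cKO and at -0.020, 0.12 and -0.10 in WT. The part of division markers in the values of Stmn1 and Cd24a was not tested.

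Most markers of astrocytes lay on the other side. Of 12 tested 9 had higher estimates in cKO and 7 were at an unadjusted p under 0.05, with a median log2 fold change of 0.23, and none passed over all genes. Of all tested genes 4.44% were higher at that p, 515 genes, which became 654 with median-ratio scaling and 736 with quantile normalization. Their mean difference from WT was 0.19, 0.25 and 0.26 in cKO replicates 1 to 3 and 0.064, -0.079 and 0.015 in WT. Their summed FPKM was 5624 to 6962 in WT and 7132 to 7742 in cKO, far above the summed 753 to 844 FPKM of the 10 neuroblast genes. Tubb3 stood at 0.36, 0.29 and 0.25 in cKO and at 0.15, -0.16 and 0.018 in WT on the same scale, and Elavl4 at 0.42, 0.15 and 0.32 in cKO and at -0.11, -0.085 and 0.20 in WT. The part of astrocyte markers in these values was not tested. Gfap, the most abundant astrocyte marker, gave 2741, 1661 and 2442 FPKM in WT and 2408, 2416 and 2500 FPKM in cKO. Its groups overlapped (adjusted p = 0.823 by limma). The lower estimates of the astrocyte list were Aqp4 (-0.14), Slc1a3 (-0.042) and Aldh1l1 (-0.036), named after their values were seen. Slc1a3 is also on the neural stem list, and its sign turned with quantile normalization. Neural stem cell genes summed to 4065 to 4261 FPKM in WT and 3763 to 4095 FPKM in cKO, and the most abundant was Fabp7, a fatty acid binding protein of radial glia, at a mean of 2071 FPKM in WT and 1917 FPKM in cKO. Of 15 tested 9 had lower estimates (8 after quantile normalization) and 0 passed the test. At an unadjusted p under 0.05, 1 was lower and 1 higher, beside 7.82% and 4.44% of all tested genes. The median log2 difference was -0.04, with library means of -0.021, 0.0029 and 0.084 in cKO. These library means are raised by Hopx, the largest change of the list. Hopx averaged 5.97 in WT and 18.1 FPKM in cKO (log2 fold change 1.46, adjusted p = 0.103 by limma). Oligodendrocyte genes summed to 1455 to 1879 FPKM in WT and 1375 to 1613 FPKM in cKO, 9 of 12 with lower estimates. None passed, 5 were lower at an unadjusted p under 0.05 (7.82% of all tested genes), and 3 lay below WT in every cKO library (10.2% of all tested genes). The myelin genes Mobp and Mag had log2 fold changes of -0.66 and -0.54 (adjusted p = 0.235 and 0.281 by limma), and the groups overlapped for Mag. The 3 higher estimates were Gpr17 (0.93), Pdgfra (0.24) and Cspg4 (0.068), named after their values were seen. The mean log2 difference of the list from WT was -0.24, 0.27 and -0.029 in WT replicates 1 to 3. In cKO replicates 1 to 3 it was -0.21, -0.021 and -0.22, inside the WT range. Microglial genes summed to 33.3 to 36.3 FPKM in WT and 25.5 to 43.2 FPKM in cKO, and of 12 endothelial and mural genes 7 were in the table, summing to 4.94 to 6.09 FPKM in WT and 4.36 to 6.36 FPKM in cKO.

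**Figure D4:**
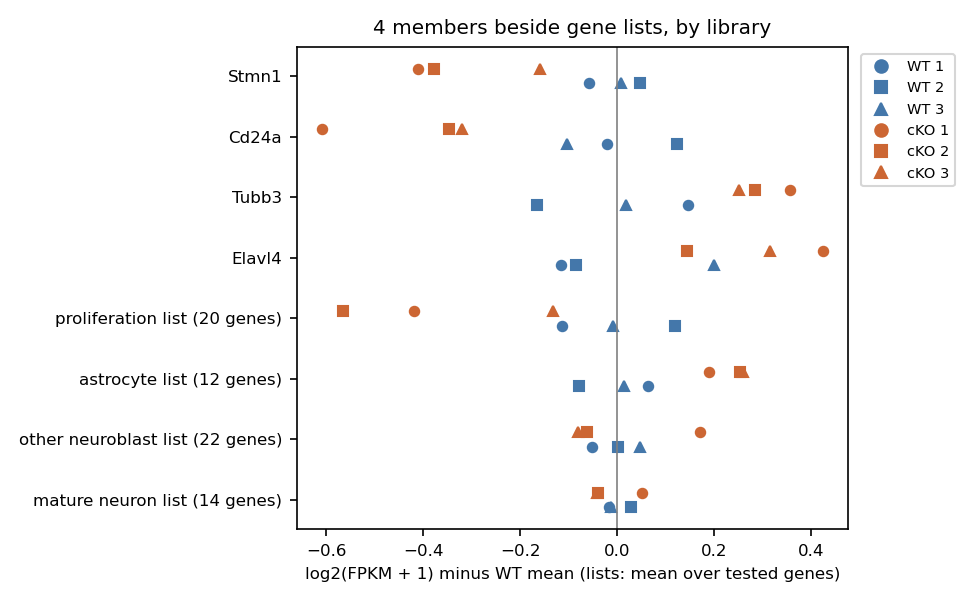
Log2(FPKM + 1) minus the WT mean in each library for 4 members and, as means over their tested genes, 4 gene lists. Stmn1, Cd24a and the proliferation list lie below WT in all 3 cKO libraries, and Tubb3 and the astrocyte list lie above. In the other neuroblast and mature neuron lists, cKO replicate 1 lies above all WT libraries and cKO replicates 2 and 3 below.

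The genes closest in pattern were sought for the 4 members of widest range over the libraries, as the smallest root-mean-square difference of log2(FPKM + 1) centred on each gene's mean, over 6 libraries and 11587 other genes. This likeness includes the group difference and is a description. Nearest to Stmn1 were Pold1, the catalytic subunit of DNA polymerase delta (difference 0.022), Gtf2f2, a general transcription factor (0.030), and Hat1, a histone acetyltransferase (0.032). Pold1 gave 12.6, 13.3 and 12.7 FPKM in the WT libraries, against 9.44, 9.58 and 11.7 in the cKO ones. Nearest to Cd24a were Hspb6, a small heat shock protein (0.043), Pkn3, a protein kinase (0.046), and Ptma, the chromatin protein prothymosin alpha (0.049). Nearest to Tubb3 were Man2b2, a mannosidase (0.045), Fam183b (0.047) and Slc1a2, the astrocyte glutamate transporter (0.048). Slc1a2 gave 199, 166 and 179.8 FPKM in the WT libraries, against 232, 205 and 207 in the cKO ones. Nearest to Elavl4 were Atp6v0b, a subunit of the proton pump (0.038), Disp2 (0.039) and Lin52, a subunit of the DREAM cell cycle repressor complex (0.041). The scale understates the change of low genes. Elavl4 (means 1.59 in WT and 2.17 FPKM in cKO) thus lay near Atp6v0b (109 and 129 FPKM) despite its larger ratio.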

How the data were processed

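RNA of 6 neurosphere libraries (3 WT, 3 cKO) was sequenced and processed by the BGISEQ institute (labels' protocols). The authors deposited FPKM values with 2 decimals (unit per the file headers). The submitters' processing notes name Bowtie2 and the build GRCm38 (mm10). The counting tool, annotation, strandedness and filters are not stated there. FPKM carries no read totals. A search of low values of genes with 1 annotated transcript of 300 to 1500 bases for steps of 1 fragment (tolerance 0.1) made at best 46.8% to 62.0% of 46 to 50 values per library whole, so no whole reads could be recovered for a count model; precision comes from the spread between libraries.

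Values were tested as log2(FPKM + 1) for 11596 genes whose mean reached 1 FPKM (2731 left out) with limma 3.58.1 in R 4.3.3 (lmFit, eBayes with trend), two-sided; p-values were adjusted by Benjamini-Hochberg across these genes and called below 0.05. Exact permutation tests used 20 assignments. On simulated data for these 11596 genes with 200 changed, the fit found 72.1% of genes changed 1.5-fold and 94.3% of those changed 2-fold, with a mean of 7.8 false calls per run. The simulated noise was normal and independent between genes, and 200 changed genes also ease the adjusted threshold. These rates thus need not hold for the real libraries, where 3 genes passed. Hopx, at 3.03 times the WT level in cKO, did not pass (adjusted p = 0.103 by limma). Members and lists were chosen with earlier results of these data known. Named are the members, their family relatives, Slc22a17, Ddx3y and Eif2s3y, of each list at most the 2 genes of highest mean and the 2 of lowest p, and the nearest genes by pattern; exceptions are stated. Coordinates and promoters are from RefSeq GRCm38.p6, coding sequences and word counts from GENCODE M21. Alternatives were another pseudocount, no filter, 2 scalings, 2 variance settings, the replicate block, the Y-linked share as a covariate and leaving out libraries. Plots used matplotlib 3.10.9 (Python 3.11.15).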

Additional observations from a re-analysis of the deposited data

How the results depend on the processing

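Of the alternatives run, 1 changed a call among the members: Cd24a passed with library weights (log2 fold change -0.38, adjusted p = 0.0483). Stmn1, Cd24a, Sox11 and Tubb3 kept their sign in all 15 alternatives. With the Y-linked covariate, which departs from group mainly in WT replicate 3, the sign turned for Tubb2b (-0.14), Elavl4 (-0.22) and Dpysl3 (0.33). With library weights it turned for Map2 (0.010), Sox4 (0.052) and Dpysl3 (0.052), with median-ratio scaling for Sox4 (0.016), and against WT replicate 3 alone for Dpysl3 (0.083). Leaving out 1 library moved Map2 between -0.10 and 0.025, Sox4 between -0.053 and 0.086 and Dpysl3 between -0.13 and 0.087, around main estimates near 0; the cause was not tested. The Sox11 estimate of -0.11 was -0.043 without WT replicate 2, and the Tubb2b estimate of 0.11 was 0.065 without cKO replicate 1 and 0.16 without cKO replicate 2. The sign turned without WT replicate 3, cKO replicate 2 or cKO replicate 3 for Map2, without WT replicate 2, WT replicate 3 or cKO replicate 2 for Sox4, and without WT replicate 2, cKO replicate 1 or cKO replicate 3 for Dpysl3. For Dcx, which was not tested, the difference ran from -0.094 to 0.13 and turned without WT replicate 2, cKO replicate 1 or cKO replicate 3.

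Over all genes, limma called 1 higher and 2 lower. It called 54 and 75 with library weights and 9 and 13 with the replicate block. It called 0 and 0 without the filter (595 and 1015 at an unadjusted p under 0.05), with quantile normalization (736 and 737), without the trend (485 and 896), with the Y-linked covariate (273 and 276) and against WT replicate 3 alone (152 and 269). Leaving out 1 library gave 0 to 4 higher and 0 to 6 lower; the most, 4 and 6, came without WT replicate 3. Quantile normalization moved the share of higher among unadjusted calls from 515 of 1422 to 736 of 1473. Same-numbered libraries correlated in their deviations from the group means at -0.043, 0.30 and 0.26 for numbers 1 to 3. Differently numbered libraries correlated at -0.40 to 0.17, below the values of numbers 2 and 3. The labels state no pairing, so the main fit used none, and whether the numbers pair the libraries is not settled. The block changed no call of a member, with an adjusted p in limma of 0.0849 for Cd24a and 0.105 for Stmn1. The depth behind single values is unknown, which limits Dcx most.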
